A study of Rattus norvegicus with 3 samples.

Results

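Oligodendrocyte precursor cells (OPCs) without Enpp6 were followed in the lesion of the injured rat spinal cord, at the level of single nuclei. A nucleus was a member if it held a UMI (a unique molecular identifier, 1 counted RNA molecule) of at least 3 of the 5 genes Tnr, Ptprz1, Sox6, Pcdh15 and Nxph1, had no Enpp6 UMI, and held UMIs of at most 1 of the 9 genes Itgam, Csf1r, Flt1, Mecom, Col1a1, Col3a1, Snap25, Snhg11 and Aqp4, which mark myeloid cells, endothelium, fibroblasts, neurons and astrocytes. The rule picked 77 of 5326 nuclei. These 15 genes chose the members, so their levels in members are a description.

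All tissue came from wild-type (WT) rats of the strain labelled SDrat, 17 weeks old, and the lesion centre was sampled on day 49 of the injury. The HGF scaffold library came from cord with an implanted scaffold that releases hepatocyte growth factor (HGF), the scaffold library from cord with an implanted scaffold, and the untreated library from cord that got no treatment. The scaffolds had been in place for 7 days, and the injury is common to all 3 libraries. Each group had 1 library, and the number of rats behind it is not given in the sources used here. No test between groups was therefore possible, no replicate error is known, and the 95% intervals below cover counting error only.

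OPCs are the dividing glia that give rise to oligodendrocytes, the cells that wrap axons in myelin. They carry PDGF receptor alpha and the proteoglycan NG2, receive synaptic input through glutamate receptors, and in a lesion they multiply and may replace lost oligodendrocytes. Enpp6, a choline phosphodiesterase, is switched on as an OPC commits to becoming an oligodendrocyte and is lower again in mature cells, so OPC nuclei without it are those in which this commitment gene was not detected. HGF acts through the receptor MET.

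Members made up 15 of 906 nuclei in the HGF scaffold library (1.66%, exact Clopper-Pearson interval 0.93 to 2.72%), 29 of 2168 in the scaffold library (1.34%, 0.898 to 1.92%) and 33 of 2252 in the untreated library (1.47%, 1.01 to 2.05%). The intervals of all 3 shares overlapped. The ratio of shares was 1.24 (exact conditional interval 0.617 to 2.39) for HGF scaffold over scaffold, 1.13 (0.570 to 2.14) for HGF scaffold over untreated and 0.913 (0.535 to 1.55) for scaffold over untreated. With every nucleus thinned to 500 UMIs the shares were 1.55%, 0.923% and 1.91% in the HGF scaffold, scaffold and untreated libraries, and the ratio of scaffold over untreated was 0.483 (0.269 to 0.839). Without the mixed members described below, HGF scaffold over scaffold was at 1.86 and scaffold over untreated at 0.623, both within the intervals at full depth. Thinning also removes UMIs of the 9 excluded genes, so that nuclei kept out at full depth can enter.

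Depth limited what could be seen. Member nuclei had a median of 1198 UMIs in the HGF scaffold library, 1434 in the scaffold library and 1590 in the untreated library, and together they held 19334, 47695 and 54386 UMIs in that order of libraries. The median over all nuclei was 1047, 1639 and 1407.5 UMIs. The deepest member of the HGF scaffold library, with 5109 UMIs, held 26.4% of that library's member UMIs. A gene with 0 UMIs could still have been at up to 155, 62.9 or 55.2 CPM (a gene's UMIs scaled to a total of 1e6) in the HGF scaffold, scaffold and untreated members. The scaffold and untreated libraries shared 3 cell barcodes and the HGF scaffold and scaffold libraries shared 1, and no member had a shared one.

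The limit on the 9 genes decided membership for most nuclei with OPC markers. Nuclei with at least 3 of the 5 markers and no Enpp6 numbered 25, 110 and 139 in the HGF scaffold, scaffold and untreated libraries, and those kept out by the 9 genes had median depths of 3019.5, 6301 and 3798 UMIs. Just inside the rule, 3, 11 and 8 nuclei with exactly 3 markers held Vcan at 553, 689 and 1331 CPM in those libraries. Just outside it, 6, 32 and 50 nuclei with 2 markers that otherwise met the rule held 324, 240 and 337 CPM. The 7, 20 and 17 members with 1 excluded gene held Vcan at 2486, 1121 and 1771 CPM. The 2, 12 and 34 nuclei with 2 excluded genes that otherwise met the rule held 535, 390 and 1241 CPM. The HGF scaffold values of 553, 324 and 535 CPM rest on very few Vcan UMIs.

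A larger share of the scaffold members than of the other members held RNA of several other lineages. Of 10 lineages, oligodendrocytes included, at least 3 with 3 or more of their markers were found in 1 of 15 HGF scaffold members, 11 of 29 scaffold members and 3 of 33 untreated members, called mixed members from here on. For myeloid markers, 16 of 17 genes were detected at a summed 2172 CPM in HGF scaffold members, all 17 at 3397 CPM in scaffold members and 14 at 2188 CPM in untreated members, against 9497, 7929 and 3039 CPM in all other nuclei of the same libraries. Astrocyte markers summed to 879, 2306 and 993 CPM, against 1421, 1560 and 2290 CPM in all other nuclei. For these markers 1 scaffold nucleus held 46 of the 110 UMIs behind the scaffold value. Neuronal markers summed to 931, 1342 and 662 CPM, against 386, 994 and 1446 CPM, with Rbfox3 and Slc17a6 at 0 in members of all 3 libraries. Schwann cell markers had no UMI in HGF scaffold members and summed to 1216 CPM in scaffold and 1048 CPM in untreated members. All other nuclei had 286, 368 and 669 CPM of them, and Sox10 is also on the OPC list. Members thus stood above all other nuclei for astrocyte markers in the scaffold library and for neuronal markers in the HGF scaffold and scaffold libraries. For Schwann cell markers they did so in the scaffold and untreated libraries. Oligodendrocyte markers summed to 1448, 2747 and 3475 CPM, against 2903, 3644 and 4796 CPM in all other nuclei. Fibroblast markers lay between 1086 and 1761 CPM, endothelial, mural and T or NK cell markers between 0 and 221 CPM, and ependymal markers had no UMI. The part of this foreign RNA in the differences below was not tested, and values without the mixed members stand beside the results they moved most.

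**Figure D1:**
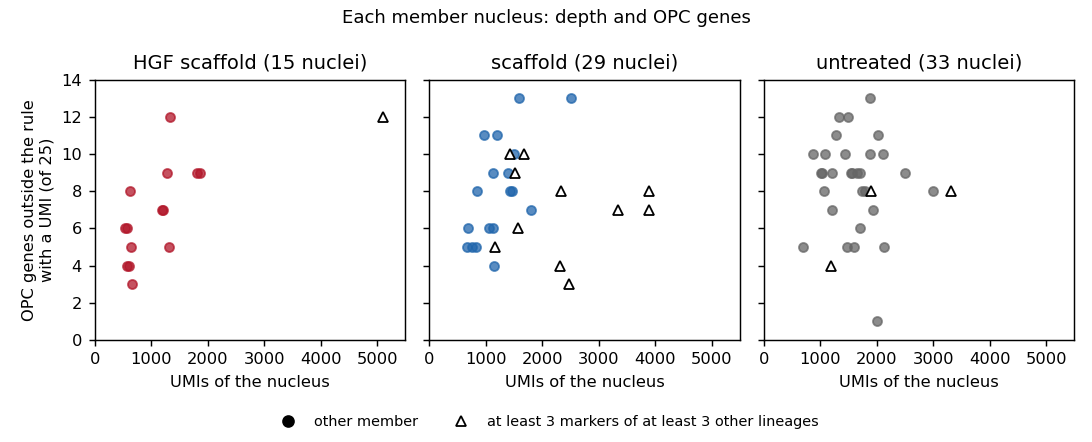
Each symbol is 1 member nucleus, with its UMIs on the x axis and the number of the 25 OPC genes outside the rule that had a UMI on the y axis. The panels show the HGF scaffold, scaffold and untreated libraries, and open triangles mark the 1, 11 and 3 mixed members; the isolated triangle of the HGF scaffold library is its nucleus of 5109 UMIs.

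Levels of 25 OPC genes that the rule did not use were set beside the label. At least 3 of them had a UMI in 76 of the 77 nuclei, with medians of 7, 8 and 9 genes per nucleus in the HGF scaffold, scaffold and untreated libraries. Their summed level was 17379 CPM in HGF scaffold members, 11636 CPM in scaffold members and 14838 CPM in untreated members, against 1685, 2055 and 3086 CPM in all other nuclei, 1398, 1336 and 1518 CPM in oligodendrocytes picked by their own markers, and 4169, 2863 and 4059 CPM in astrocytes. Nuclei that met the rest of the rule and held Enpp6 were closer, at 5983, 4226 and 9122 CPM. In the summed level of these genes, which the rule had not read, members stood above all these parts. Not every gene did so, as Ncan had 62.9 and 55.2 CPM in scaffold and untreated members. Astrocytes of those libraries had 534 and 198 CPM of it. In the HGF scaffold library 1 nucleus held 96 of the 336 member UMIs behind the sum. The list was chosen with earlier results of these data known, so this is a description and no independent check of the label.

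Pdgfra, the receptor for the main mitogen of OPCs, had 18, 37 and 33 UMIs in HGF scaffold, scaffold and untreated members, which is 931, 776 and 607 CPM, against 120, 149 and 186 CPM in all other nuclei and 0, 33.1 and 24.1 CPM in oligodendrocytes. It was detected in 40.0%, 62.1% and 54.5% of members and, thinned to 500 UMIs, in 26.7%, 48.3% and 30.3% of members against 5.84%, 7.11% and 9.73% of all other nuclei. Vcan, the proteoglycan versican of the OPC surface and matrix, stood at 2690, 1258 and 1839 CPM in HGF scaffold, scaffold and untreated members. Cspg4, which encodes NG2, stood at 466, 210 and 239 CPM in those members against 18.2, 23.3 and 36.8 CPM in all other nuclei.

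Transcription factors of the lineage were sparsely detected. Olig1 had 0, 1 and 1 UMIs and Olig2 had 1, 0 and 5 UMIs in HGF scaffold, scaffold and untreated members. Nkx2-2 had none. Sox10 was found in 0 of 15, 4 of 29 and 8 of 33 members, against 2.36%, 5.05% and 6.90% of all other nuclei. Olig2 was found in 1.12%, 1.36% and 2.43% of all other nuclei.

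Ranked by the smallest of the 3 ratios over all other nuclei of the same library, and outside the rule, the leading genes were Nrxn2, Tmem132d, Opcml, Mmp16, Dscam, Slc35f1, Cntn1, Bcas1, Chst9, Lrrc4c, Ntn1, Dscaml1, Gria4, Brinp3 and Col5a3, with smallest ratios of 10.1 for Nrxn2 and 4.68 for Col5a3. Opcml, a GPI-anchored adhesion protein, had 8741, 3984 and 7778 CPM in HGF scaffold, scaffold and untreated members, against 311, 476 and 932 CPM in all other nuclei. Dscam, a homophilic adhesion receptor, had 3879, 2726 and 3714 CPM in members, against 130, 340 and 510 CPM. Ntn1, the guidance cue netrin-1, had 1190, 1405 and 1361 CPM in members, against 144, 155 and 267 CPM, and its receptor Dcc had 3000, 1552 and 2243 CPM, against 124, 328 and 511 CPM. Both ligand and receptor were thus present in members of every library. This ranking compares chosen nuclei with the rest and is a description.

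**Figure D2:**
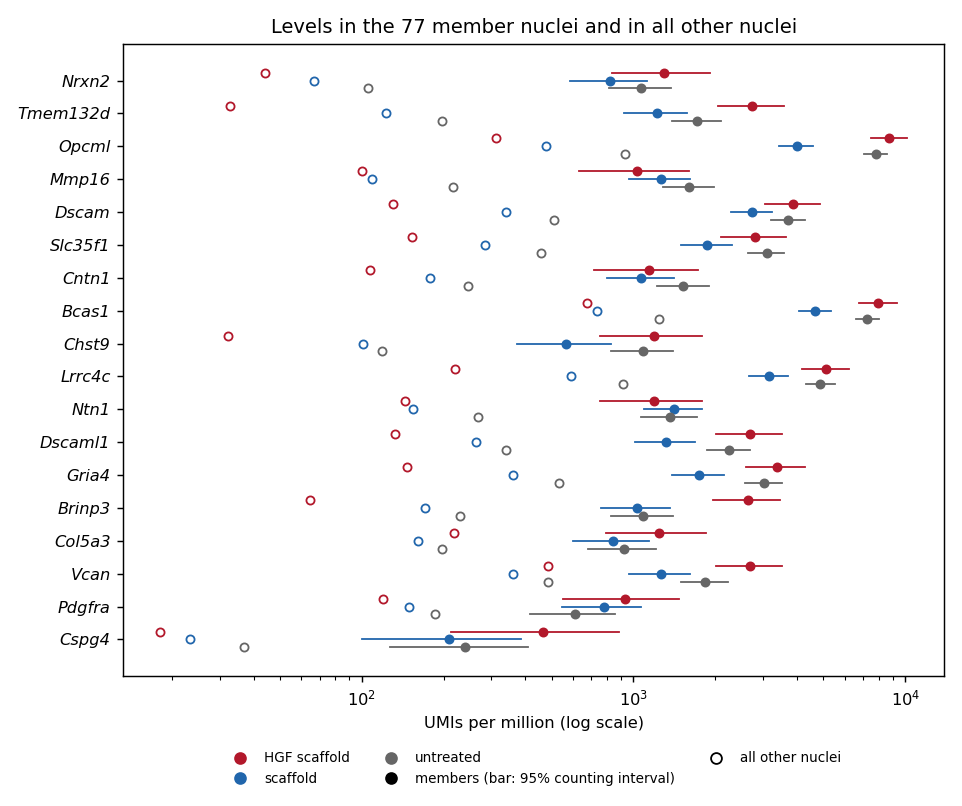
Filled circles give CPM in member nuclei with exact Poisson 95% intervals and open circles give CPM in all other nuclei, on a log axis, for the 15 genes furthest above the other nuclei and for Vcan, Pdgfra and Cspg4, in the HGF scaffold, scaffold and untreated libraries. Every filled circle lies to the right of the open circle of its library, and the scaffold members are the lowest of the 3 for Opcml, Bcas1, Lrrc4c, Dscaml1 and Gria4.

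What sets these nuclei apart from Enpp6-positive OPC nuclei could be read from 4, 5 and 8 nuclei of the HGF scaffold, scaffold and untreated libraries that met the rest of the rule and held Enpp6. They were 21.1%, 14.7% and 19.5% of all nuclei of the OPC rule, with wide exact intervals (6.05 to 45.6%, 4.95 to 31.1% and 8.82 to 34.9%). Members held far less RNA of Frmd4a, Nfasc and Kirrel3 and more RNA of Dscam, Dcc and Lrrtm4. Low levels of Frmd4a, Nfasc and Kirrel3 were not particular to members. In the same order of libraries, all other nuclei had 1357, 1362 and 1744 CPM of Frmd4a. They had 528, 457 and 709 CPM of Nfasc and 415, 628 and 949 CPM of Kirrel3. The genes below were picked from the largest differences in summed counts after their values were seen.

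Frmd4a, which encodes a FERM-domain protein linked to cell polarity, had 1707, 839 and 1875 CPM in HGF scaffold, scaffold and untreated members, against 30991, 12127 and 39275 CPM in the Enpp6-positive nuclei. The ratio was 0.0551 (0.0369 to 0.0799) in the HGF scaffold library, 0.0692 (0.0480 to 0.0975) in the scaffold library and 0.0478 (0.0384 to 0.0589) in the untreated library. The median member held 1, 1 and 2 Frmd4a UMIs in those libraries and the median Enpp6-positive nucleus 52, 9 and 92.5 UMIs. Depth differed, as Enpp6-positive nuclei had medians of 1118, 2835 and 2163.5 UMIs in all. Scaled within each nucleus, the median was 829, 700 and 1384 CPM in members and 33564, 4496 and 56273 CPM in Enpp6-positive nuclei. In the scaffold library 1 of the 5 Enpp6-positive nuclei held 127 of their 198 Frmd4a UMIs. At least 10 Frmd4a UMIs were found in 1 of 15, 0 of 29 and 2 of 33 members, against 3 of 4, 2 of 5 and 5 of 8 Enpp6-positive nuclei. The sets overlapped nonetheless, as 1 untreated nucleus with Enpp6 had no Frmd4a UMI.

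Close to the threshold the same order held. Over the 3 libraries, Frmd4a stood at 1441 CPM in the 77 nuclei without Enpp6, at 12622 CPM in the 9 nuclei with 1 Enpp6 UMI and at 38842 CPM in the 8 nuclei with more. Dscam ran the other way, with 3352, 1257 and 598 CPM in nuclei with 0, 1 and more Enpp6 UMIs. Enpp6 UMIs were also found in 6.73%, 11.7% and 15.3% of all other nuclei of the HGF scaffold, scaffold and untreated libraries.

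Among genes of later stages, Nfasc, the adhesion protein neurofascin, had 931, 650 and 1048 CPM in HGF scaffold, scaffold and untreated members, against 11813, 2634 and 6507 CPM in the Enpp6-positive nuclei. Mbp, the myelin basic protein, had 569, 1048 and 1416 CPM in members, against 3682, 4716 and 2905 CPM in Enpp6-positive nuclei and 6135, 5516 and 6074 CPM in oligodendrocytes. In each library members were also below all other nuclei, which had 1220, 1425 and 1970 CPM of Mbp. Kirrel3, an immunoglobulin-family adhesion gene, had 414, 671 and 644 CPM in members, against 6137, 2511 and 6391 CPM in Enpp6-positive nuclei, and Rras2, a small GTPase, had 1, 1 and 5 UMIs in members.

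Genes higher in members than in the Enpp6-positive nuclei were of several kinds, and included Ppap2a, Chst9, Nmnat2 and Klf12 as well as those described here. Lrrtm4, a synaptic adhesion protein, had 3052, 2495 and 3438 CPM in HGF scaffold, scaffold and untreated members, against 460, 306 and 697 CPM. Dcc had no UMI in the Enpp6-positive HGF scaffold nuclei and 184 and 697 CPM in those of the scaffold and untreated libraries. Sox5, which with Sox6 holds OPCs in the precursor state, had 879, 692 and 827 CPM in members, against 0, 61.2 and 232 CPM. Sox6 itself, a gene of the rule, was lower in members than in Enpp6-positive nuclei of the HGF scaffold library (ratio 0.580, 0.346 to 0.991) and higher in the scaffold library (1.58, 0.940 to 2.79) and the untreated library (1.87, 1.23 to 2.96). Opcml was near the same level on both sides, with ratios of 1.14, 1.12 and 1.16 and intervals that held 1 in all 3 libraries.

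**Figure D3:**
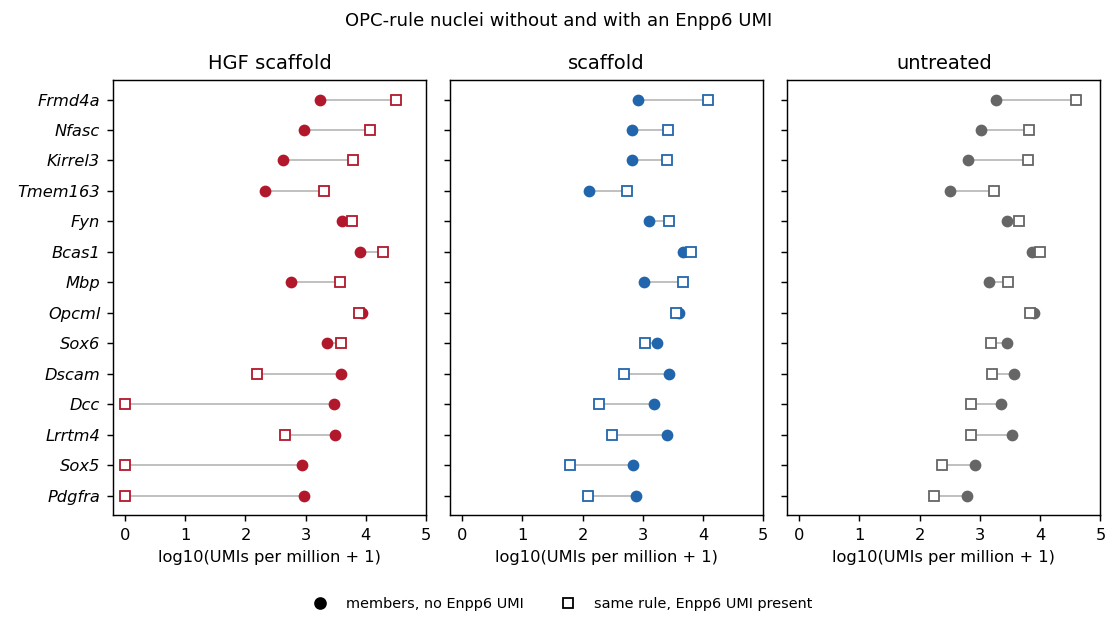
Circles give members and open squares give nuclei of the same rule with an Enpp6 UMI, as log10(CPM + 1), in the HGF scaffold, scaffold and untreated libraries, which have 4, 5 and 8 such Enpp6-positive nuclei. Frmd4a, Nfasc, Kirrel3, Tmem163, Fyn, Bcas1 and Mbp lie lower in members of all 3 libraries, Dscam, Dcc, Lrrtm4, Sox5 and Pdgfra lie higher, and a square at 0 is a gene without a UMI.

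Members nevertheless carried some genes of early commitment, foremost Bcas1. Bcas1, which marks early oligodendrocytes, stood at 7965, 4676 and 7263 CPM in HGF scaffold, scaffold and untreated members, against 675, 737 and 1240 CPM in all other nuclei, and was seen in 14 of 15, 27 of 29 and 31 of 33 members. Gpr17, a receptor of committed precursors, had only 1 UMI, in a scaffold member. Hgf had no UMI in any of the 77 nuclei, and its receptor Met had 1, 2 and 0 UMIs, although Hgf was found in 12.5%, 13.4% and 3.52% and Met in 11.9%, 16.2% and 4.46% of all other nuclei of the HGF scaffold, scaffold and untreated libraries. A count of 0 among 15, 29 and 33 members allows a share of nuclei with an Hgf UMI of up to 20%, 10.3% and 9.09%.

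Signs of division were sparse and came from few nuclei. Of 34 cell cycle genes, at least 3 had a UMI in 1 of 15 HGF scaffold, 4 of 29 scaffold and 5 of 33 untreated members. The list summed to 362, 1908 and 993 CPM, against 1079, 864 and 586 CPM in all other nuclei. In the scaffold library 1 nucleus held 35 of the 91 UMIs, and both nuclei with the most cycle genes, 14 and 11, were mixed members. Mki67, the proliferation marker, had 1, 2 and 1 UMIs, too few for any comparison.

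The effect of HGF release was addressed by HGF scaffold over scaffold, since both had an implant. HGF scaffold members had higher levels of the commitment kinase Fyn, of the glutamate receptor subunits Gria2 and Grik3 and of the phosphatase Ptprk. Of the 683 genes measured, meaning at least 20 UMIs over the pair of libraries, 68 were at least 2-fold higher (9.96%) and 91 at least 2-fold lower (13.3%). The median log2 ratio of all 683 was 0.02. Without the mixed members the counts were 26 and 21. With fewer nuclei fewer genes can reach 20 UMIs, so these counts are not shares of the 683.

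Of the 5 measured commitment genes, 2 were at least 2-fold higher and none lower, with a median log2 ratio of 0.77, against 0.03 for the same genes in all other nuclei; without the mixed members the median was 0.49. Fyn, a kinase of the signalling that drives OPC differentiation, had 76 UMIs in 13 of 15 HGF scaffold members, 61 in 20 of 29 scaffold members and 150 in 24 of 33 untreated members, which is 3931, 1279 and 2758 CPM. Its HGF scaffold over scaffold ratio was 3.07 (2.17 to 4.38), against 1.07 in all other nuclei, and scaffold members were the lowest of the 3 libraries. The log2 ratio was 1.62, 1.63 without the mixed members and 1.92 without the deepest nucleus of each library. Sirt2, a deacetylase of the oligodendrocyte lineage, had 517 CPM in HGF scaffold members and 252 CPM in scaffold members, and the interval of its ratio of 2.06 ran from 0.796 to 5.19.

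Of the 11 measured glutamate receptor genes, 3 were at least 2-fold higher and none lower, with a median log2 ratio of 0.39, against -0.93 in all other nuclei. All other nuclei are a mixture of cell types that differed between libraries. Their neuronal markers summed to 386, 994 and 1446 CPM in the HGF scaffold, scaffold and untreated libraries. The part of cell make-up in the medians of all other nuclei, here and below, was not tested. Gria2, the AMPA receptor subunit that limits calcium entry, had 31, 14 and 28 UMIs in HGF scaffold, scaffold and untreated members, which is 1603, 294 and 515 CPM. Its HGF scaffold over scaffold ratio was 5.46 (2.82 to 11.1), with 12 of the 31 UMIs in 1 nucleus, and the log2 ratio of 2.45 was 1.30 without the mixed members. Grik3, a kainate receptor subunit, had 931, 189 and 313 CPM, a ratio of 4.93 (2.10 to 12.5) and a log2 ratio of 2.30, or 1.63 without the mixed members. The third was Grm5, a metabotropic receptor, at 931, 419 and 754 CPM (2.22, 1.11 to 4.42). Gria4, another AMPA subunit, had a ratio of 1.93 (1.37 to 2.71), with 30 of its 65 HGF scaffold UMIs in 1 nucleus.

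Of the 28 measured adhesion and synapse organiser genes, 4 were at least 2-fold higher and 4 at least 2-fold lower, with a median log2 ratio of 0.49, against -0.72 in all other nuclei. The higher ones were Opcml at 2.19 (1.77 to 2.71), Csmd1, a large membrane protein with complement-control repeats, at 2.30 (1.73 to 3.06), Dscaml1 at 2.04 (1.38 to 2.99) and Cdh2, which encodes N-cadherin, at 3.29 (1.27 to 8.84). Without the mixed members Opcml and Csmd1 were no longer past 2-fold, with log2 ratios of 0.78 and 0.87, against 1.13 and 1.2 with them. Of the lower ones, Nrxn3, a presynaptic neurexin, had 310 against 1132 CPM (0.274, 0.0964 to 0.636), where the ratio in all other nuclei was 0.233, and Cdh10, a cadherin, had a ratio of 0.411 (0.104 to 1.2). The teneurins Tenm3 (0.197, 0.0702 to 0.450) and Tenm2 (0.274, 0.106 to 0.599) drew 26 of 75 and 31 of 63 scaffold UMIs from 1 nucleus. Of the 10 measured OPC identity genes, 2 were at least 2-fold higher and none lower, with a median log2 ratio of 0.43 that was -0.16 without the mixed members. The higher ones were Vcan (2.14, 1.45 to 3.15) and Brinp3 (2.57, 1.70 to 3.88), a gene of neural differentiation, while Pdgfra had a ratio of 1.2 (0.643 to 2.16). Without the mixed members the log2 ratios were 0.63 for Vcan and 0.98 for Brinp3, both short of 2-fold.

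Outside the lists, Usp54, of the ubiquitin peptidase family, had 1396, 314 and 368 CPM in HGF scaffold, scaffold and untreated members. Its HGF scaffold over scaffold ratio was 4.44 (2.28 to 8.98). Ptprk, a receptor phosphatase of cell contacts, had 1810, 461 and 883 CPM and a ratio of 3.92 (2.24 to 7.02), with a log2 ratio of 1.97, or 2.0 without the mixed members. Kazn, a scaffold protein of cell junctions, had 7345, 3019 and 4854 CPM and a ratio of 2.43 (1.92 to 3.09), Kcnd2, a potassium channel, a ratio of 2.75 (1.86 to 4.08; log2 ratio 0.94 without the mixed members), and Ctnnd2, a neural catenin, a ratio of 2.69 (1.75 to 4.15). For each of these 5 genes HGF scaffold members were the highest of the 3 libraries, with the scaffold members lowest. The ranking that picked them favours genes high in HGF scaffold and low in scaffold members, so this order is a description. Of the 10 lowest genes by the same ranking, 8 drew much of their scaffold RNA from 1 nucleus. For Slc4a4, a bicarbonate cotransporter abundant in astrocytes, 46 of 53 UMIs came from 1 nucleus, for Ppap2a 29 of 38, for Fbxl7 24 of 36, for Nrg1 20 of 32, for Hs6st3 17 of 30, and for Pmp22, a myelin protein abundant in Schwann cells, 17 of 34. Pmp22 had no UMI in HGF scaffold members, so that its ratio is only bounded, and the other 2 were the teneurins.

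**Figure D4:**
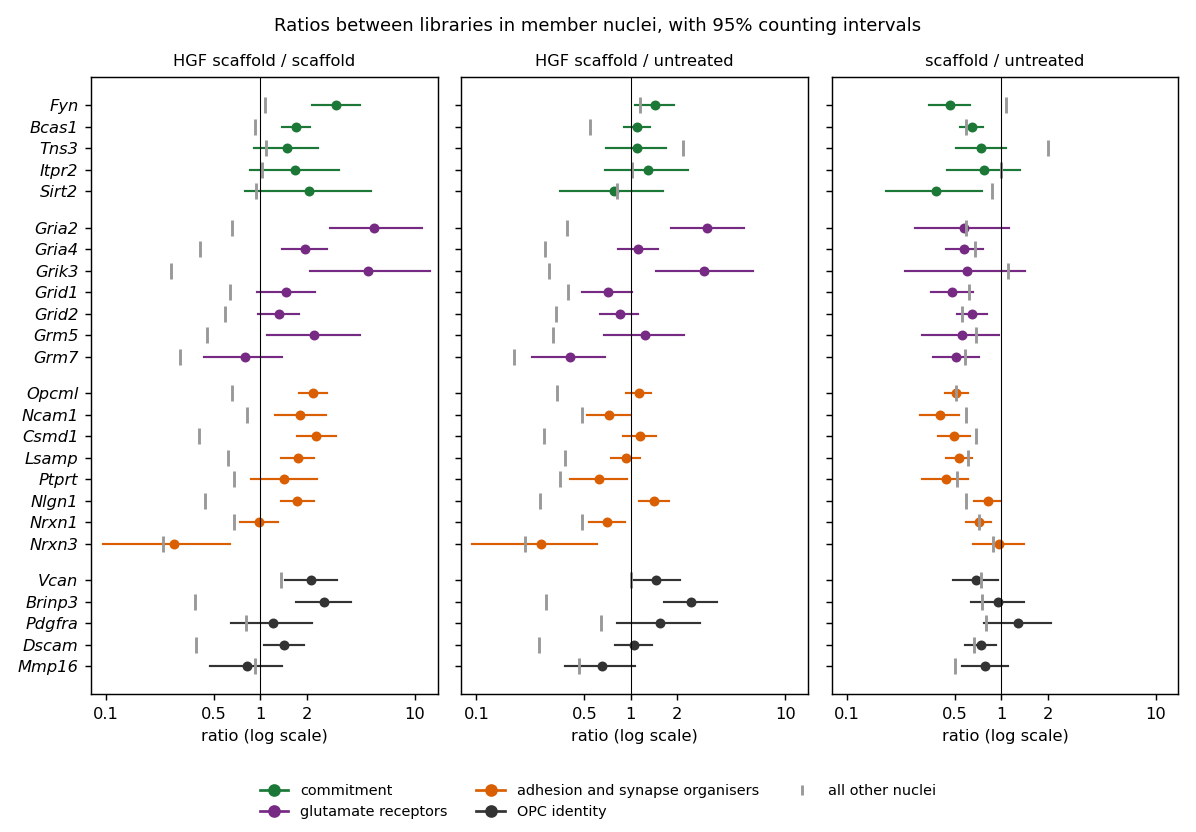
Ratios of CPM between libraries in member nuclei, with exact 95% counting intervals, on a log axis, for genes of 4 lists picked after their values were seen; grey ticks give the ratio in all other nuclei. In the HGF scaffold over scaffold panel Fyn, Gria2 and Grik3 lie furthest to the right, at 3.07, 5.46 and 4.93, and in the scaffold over untreated panel Ncam1, Ptprt and Fyn lie at 0.40, 0.435 and 0.464.

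HGF scaffold over untreated compares the combined treatment with the injured cord alone, and shares each library with another comparison. Of 718 measured genes, 51 were at least 2-fold higher (7.1%) and 86 at least 2-fold lower (12%). Fyn stood at a ratio of 1.43 (1.07 to 1.89), and the median log2 ratio of the 5 commitment genes was 0.13, none of them past 2-fold. Of 11 OPC identity genes only Brinp3 was at least 2-fold higher and none lower, and their median of 0.41 was -0.04 without the mixed members. Of 12 glutamate receptor genes, Gria2 (3.11, 1.81 to 5.39) and Grik3 (2.98, 1.45 to 6.15) were at least 2-fold higher and Grm7, a presynaptic metabotropic receptor, at least 2-fold lower (879 against 2170 CPM, 0.405, 0.228 to 0.677). The median of this list was 0.23, against -1.60 for the same genes in all other nuclei.

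Among the other genes, Usp54 had a ratio of 3.80 (2.05 to 7.14) over untreated, Brinp3 of 2.43 (1.64 to 3.60), and Pabpn1, a nuclear poly(A)-binding protein found in 14 of 15 HGF scaffold members, of 2.50 (1.38 to 4.5). Arsb, the lysosomal sulfatase that acts on chondroitin sulfate, had 983 CPM in HGF scaffold members and 368 CPM in untreated members (2.67, 1.35 to 5.27). Lower genes were Nrxn3 (0.264, 0.0933 to 0.606), Xkr4 (0.307, 0.108 to 0.712), the sialyltransferase St3gal3 (0.188, 0.0217 to 0.739) and Utrn, the dystrophin relative utrophin (0.245, 0.0639 to 0.670). Trpm3, a cation channel, had 983 against 2758 CPM, but all 19 of its HGF scaffold UMIs came from 1 nucleus and 48 of its 150 untreated UMIs from 1 nucleus.

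Of 4 measured myelin genes, 2 were at least 2-fold lower, Mbp among them, and none higher, with a median log2 ratio of -0.65, against -0.61 for the same genes in all other nuclei; without the mixed members the median was -0.13. Mbp was found in 3 of 15 HGF scaffold members and 20 of 33 untreated members, with a ratio of 0.402 (0.193 to 0.760). The log2 ratio of Mbp was -1.32, but -0.43 without the mixed members and -0.53 without the deepest nucleus of each library; 20 of its 77 untreated UMIs came from 1 nucleus. Of 29 adhesion genes none was at least 2-fold higher, and Nrxn3 and Tenm2 (0.428, 0.163 to 0.955) were at least 2-fold lower, with a median log2 ratio of -0.17.

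Scaffold over untreated compares cord with an implanted scaffold and cord that got no treatment. The scaffold, its implantation and other differences between these libraries cannot be told apart. Scaffold members had lower levels of Fyn and of the adhesion genes Ncam1 and Ptprt. Of 1116 measured genes, 96 were at least 2-fold higher (8.6%) and 78 at least 2-fold lower (6.99%), with a median log2 ratio of -0.03 over all of them. Without the mixed members 36 genes were at least 2-fold higher.

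Of 29 adhesion and synapse organiser genes, 5 were at least 2-fold lower and 1 was at least 2-fold higher, and 25 lay below the median gene. The median log2 ratio was -0.51, against -0.68 for the same genes in all other nuclei, so that a shift of this size was not confined to members. Ncam1, the neural cell adhesion molecule, had 68 UMIs in 24 of 29 scaffold members and 194 in 31 of 33 untreated members, 1426 against 3567 CPM (0.40, 0.299 to 0.529). Its log2 ratio of -1.32 was -1.29 without the mixed members. Ptprt, an adhesion-type phosphatase, had 1048 against 2409 CPM (0.435, 0.308 to 0.607; log2 ratio -1.20, or -0.60 without the mixed members), and Opcml had 3984 against 7778 CPM (0.512, 0.429 to 0.609; log2 ratio -0.97, or -0.65 without the mixed members). The other genes past 2-fold were Csmd1 (0.494), Cdh2 (0.367, 0.152 to 0.799) and Pcdh11x, a protocadherin (0.380, 0.136 to 0.928), and Tenm3 on the higher side; without the mixed members the log2 ratios of Csmd1 and Tenm3 were -0.61 and 0.12. Outside the list, the adhesion gene Cadm2 had 5 against 28 UMIs (0.204, 0.0614 to 0.534) and Fat3, an atypical cadherin, had 314 against 919 CPM (0.342, 0.178 to 0.619).

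All 5 measured commitment genes lay below the median gene and 2 were at least 2-fold lower, with a median log2 ratio of -0.64, against -0.01 in all other nuclei; without the mixed members it was -0.23. Fyn had 1279 CPM in scaffold members against 2758 CPM in untreated members (0.464, 0.339 to 0.628), where the ratio in all other nuclei was 1.07; 35 of its 150 untreated UMIs came from 1 nucleus. Sirt2 had 252 against 662 CPM (0.380, 0.180 to 0.747). Bcas1 had 4676 against 7263 CPM (0.644, 0.544 to 0.761), with a log2 ratio of -0.64 that was -0.07 without the mixed members.

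Of 12 glutamate receptor genes, only Grid1, a delta receptor of synapse formation, was at least 2-fold lower (1300 against 2703 CPM, 0.481, 0.351 to 0.651) and none was higher. The median was -0.68, against -0.64 in all other nuclei, and -0.18 without the mixed members. Of 11 OPC identity genes none passed 2-fold; Vcan had 1258 against 1839 CPM (0.684, 0.488 to 0.952), and its log2 ratio of -0.55 was 0.01 without the mixed members. Pdgfra had a ratio of 1.28 (0.778 to 2.11). Growth factor receptor genes (6 measured), the proteoglycan and matrix genes (4) and the HGF and MET signalling genes (6) had 0, 0 and 2 members at least 2-fold higher and none lower; the 2 were Cblb, a ubiquitin ligase that acts on receptor kinases (3.99, 1.56 to 12.1, against 2.40 in all other nuclei), and Stat3, a transcription factor downstream of many cytokines and of MET (2.62, 1.2 to 6.17, against 1.29).

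Genes higher in scaffold members were Fth1, the ferritin heavy chain, found in 16 of 29 scaffold and 5 of 33 untreated members (713 against 165 CPM, 4.31, 2.02 to 10.2), and Apoe, the lipid carrier, found in 25 of 29 and 13 of 33 (1510 against 515 CPM, 2.93, 1.87 to 4.71). In all other nuclei the same ratios were 2.59 for Fth1 and 2.24 for Apoe, with Apoe at 2103 CPM in the scaffold and 937 CPM in the untreated library. Robo2, a receptor for Slit guidance cues, had 24 UMIs in 12 scaffold members and 6 in 5 untreated members (4.56, 1.82 to 13.6), against a ratio of 0.606 in all other nuclei. The others at the top were Slc4a4 (8.63), Hs6st3 (8.55), Nrg1 (6.08), Tead1 (3.75), Ppap2a (3.61), Fbxl7 (3.42) and Tenm3 (3.05). For each of them 1 nucleus held many of the scaffold UMIs, as given above for all but Tead1, where it was 14 of 23. That part was smallest for Tenm3. Immediate early and stress genes summed to 1300 CPM in scaffold members and 515 CPM in untreated members, against 259 CPM in HGF scaffold members, with none of the 34 reaching 20 UMIs in a pair of libraries. All other nuclei of the scaffold, untreated and HGF scaffold libraries had 1724, 988 and 1866 CPM of them, above the members in each. The HGF scaffold value rests on 5 UMIs, and 1 nucleus held 14 of the 62 scaffold UMIs.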

How the data were processed

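The labels' protocols describe nuclei isolated with a kit for neuronal tissue, droplet capture with 10x Genomics gel beads and paired-end sequencing. The deposited matrices hold raw UMI counts, whole numbers for each gene in each nucleus; Cell Ranger 6.0.1 is named in the submitters' processing notes. The genome build was not given in the sources used here. All 17328 genes and all deposited barcodes were used, no doublet caller was run, and mixed members were kept.

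Counts were summed over member nuclei of a library and divided by their total (CPM). Levels have exact Poisson and ratios exact conditional (Clopper-Pearson) intervals at 95%; a ratio with 0 UMIs in 1 library used a floor of 3 counts per library, as a bound. Past 2-fold means a ratio of at least 2 or at most 0.5 among genes with 20 or more UMIs over the pair of libraries. With 1 library per group no p-value was computed. The members and lists were chosen with earlier results of these data known, and the 4 lists that lead the comparisons (OPC identity, commitment, glutamate receptors, adhesion) after their values were seen. Of 623 list entries 580 were matched in the files; Lhfpl3, Megf11, Xylt1, Luzp2 and Susd5 of the identity list were not. Named genes are those of the rule, the 15 furthest above all other nuclei, the 10 highest and 10 lowest of each comparison with at least 30 UMIs, ranked by the interval bound nearest 1, and the 4 furthest of each list; genes set against Enpp6-positive nuclei were chosen after their values were seen. Oligodendrocytes held at least 5 of 10 of their markers, astrocytes Aqp4 and at least 2 of 6 others. Alternatives covered the number of markers, the excluded genes, Enpp6, depth, mixed members, quality, weighting, scaling and the count minimum. The code was tested on simulated data. Python 3.11.15, numpy 2.4.6, scipy 1.17.1 and pandas 2.3.3 were used.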

Additional observations from a re-analysis of the deposited data

How the results depend on the processing

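No paired analysis was possible because each group has 1 library. Alternatives that left a gene under 20 UMIs in its pair of libraries gave no value, a limit set after the values were seen. They can also change how many genes are measured. Counts of genes past 2-fold below are therefore not shares of the numbers given above, and do not by themselves show more or less change. Over the alternatives tried, 1246 gene ratios, 321 list medians and 24 share ratios stayed within the counting interval (for medians, the middle range of the list's genes), and 115, 27 and 3 moved beyond it. Beyond it, 25 gene ratios and 8 medians changed sign, and within it 35 and 58, where the value lay near 0. Among these were the commitment median of HGF scaffold over untreated (-0.18 with at least 1000 UMIs per nucleus, -0.14 with 4 markers, -0.09 from 1 UMI) and the glutamate receptor medians of HGF scaffold over untreated (-0.21 from 50 UMIs, -0.05 with Enpp6-positive nuclei kept, -0.013 from 1 UMI) and over scaffold (-0.023 with none of the 9 genes). Below, comparisons are in the order HGF scaffold over scaffold, HGF scaffold over untreated, scaffold over untreated, and the causes were not tested.

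Without the limit on the 9 excluded genes (25, 110 and 139 nuclei in the HGF scaffold, scaffold and untreated libraries, an alternative chosen after seeing the data), 357, 619 and 890 genes were at least 2-fold higher and 861, 773 and 351 lower, and the share ratios of HGF scaffold were 0.544 over scaffold and 0.447 over untreated. The log2 ratio of HGF scaffold over scaffold became 0.23 for Apoe, -0.32 for Arsb, 0.69 for Fbxl7, 0.18 for Fhit, 0.995 for Hs6st3 and 0.84 for Tenm2, and that of Fyn was 0.78. Over untreated, Kcnd2 in HGF scaffold members was at -0.041. For scaffold over untreated it became -0.58 for Fbxl7, -0.98 for Hs6st3, -1.42 for Nrg1, -0.61 for Robo2, -0.82 for Slc4a4, -0.37 for Tead1, -1.31 for Tenm2 and -0.76 for Tenm3. Median log2 ratios became 0.50 (commitment, HGF scaffold over scaffold), -0.10 (commitment, scaffold over untreated), -0.59 (identity, scaffold over untreated), -0.63 (glutamate receptors, HGF scaffold over untreated), and -0.57 and -0.72 (ion channels, HGF scaffold over untreated and scaffold over untreated).

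With none of the 9 genes allowed (8, 9 and 16 nuclei), 36, 28 and 14 genes were at least 2-fold higher, and 11 and 55 lower in the comparisons of HGF scaffold. HGF scaffold over untreated became 0.10 for Cdk14, -0.69 for Ctnnd2, 0.019 for Ncam1 and 0.14 for Ptprt, and scaffold over untreated 0.42 for Kazn, -0.33 for Macf1 and -0.79 for Tenm2. The commitment median was 1.69, 1.40 and -0.26, the adhesion median 0.89 for HGF scaffold over scaffold, and for HGF scaffold over untreated the medians were -0.71 (identity), -0.73 (glutamate receptors), 0.75 (HGF and MET signalling) and 0.52 (axon guidance); for scaffold over untreated, growth factor receptors were at -0.49.

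Without the mixed members, 26 and 36 genes were at least 2-fold higher in HGF scaffold over scaffold and in scaffold over untreated, and 21 lower in HGF scaffold over scaffold. The commitment medians were 0.49 and -0.23 in these comparisons, and the identity medians -0.16, -0.04 and 0.02 in all 3. Vcan in scaffold over untreated was 0.0069. With at least 4 of 5 markers, 41 genes were higher and 56 lower in HGF scaffold over scaffold and 50 lower in HGF scaffold over untreated, the adhesion median of HGF scaffold over scaffold was 0.10, and Tenm2 in scaffold over untreated was -0.050. With Enpp6-positive nuclei kept, 158 genes were lower in HGF scaffold over scaffold. Weighting nuclei equally put the commitment median at 0.69 for HGF scaffold over untreated and -0.22 for scaffold over untreated. Without the deepest nucleus of each library, also chosen after seeing the data, Ppap2a was -0.19 in scaffold over untreated. Thinning put the share ratio of scaffold over untreated at 0.483.

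With at least 50 UMIs per gene, 18, 4 and 14 genes were at least 2-fold higher and 12, 18 and 17 lower; from 1 UMI in each library, 1251, 1298 and 1319 were higher and 600, 411 and 654 lower.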

Other observations

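Of the 11 ion channel genes measured in HGF scaffold over scaffold, the median log2 ratio was 0.40, against -1.01 in all other nuclei and -0.23 in members without the mixed ones. It was 0.01 in HGF scaffold over untreated and 0.14 in scaffold over untreated. In HGF scaffold over scaffold, 2 were at least 2-fold higher and 1 lower: Kcnd2, Scn8a, a sodium channel (2.24, 0.854 to 5.82), and Cacna1c, a calcium channel (0.476, 0.225 to 0.917), of which 19 of 57 scaffold UMIs came from 1 nucleus. Over all 683 genes measured in that comparison, 9.96% were at least 2-fold higher and 13.3% at least 2-fold lower. In HGF scaffold over untreated Kcnq3, a potassium channel, stood at 569 against 1361 CPM (0.418, 0.200 to 0.792). In scaffold over untreated Cacna1a, another calcium channel, stood at 252 against 607 CPM (0.415, 0.195 to 0.824).

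Genes acting downstream of MET were detected although Met itself was at 1, 2 and 0 UMIs in HGF scaffold, scaffold and untreated members. Of the 4 genes of the HGF and MET list measured in HGF scaffold over untreated, 2 were at least 2-fold lower, a call made for 12% of all measured genes, and none higher. The other two were Gab1, a docking protein of MET (1.44, 0.809 to 2.50), and Ptprj, a receptor phosphatase (1.34, 0.829 to 2.11), and the median log2 ratio was -0.45. The adaptor Grb2 had 155 CPM in HGF scaffold members against 533 CPM in untreated members (0.291, 0.0567 to 0.939) and the kinase subunit Pik3r1 had 362 against 901 CPM (0.402, 0.154 to 0.892). Stat3 had 103 against 482 CPM in HGF scaffold over scaffold (0.215, 0.0245 to 0.868). In HGF scaffold members these values rest on 3, 7 and 2 UMIs for Grb2, Pik3r1 and Stat3.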
